A study of Mus musculus with 6 samples.

Results

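Mast cell chymase (Cma1) and 4 intracellular serpins, Serpinb9, Serpinb9b, Serpinb6a and Serpinb6b, were followed across 3 stages of natural killer (NK) cell maturation. All probe sets annotated to these 5 genes alone were taken, 6 of the 45037 non-control probe sets, and the genes are 5 of the 18193 measured. The genes were chosen by their measured levels in the subsets, so the differences between subsets are given as descriptions, and where calls over all genes are counted nothing is read from those of the 5. The cells were NK1.1+ spleen cells of RAG-/- mice, which lack mature T and B cells because they cannot rearrange antigen receptor genes. This background is shared by every group. Flow cytometry separated CD27+CD11b-, CD27+CD11b+ and CD27-CD11b+ cells, commonly ordered from least to most mature, and each subset was profiled on 2 Affymetrix mouse arrays. Neither the sex nor the age of the mice was given in the labels, and nothing there says that the 2 samples of a subset came from separate animals, so their spread may be technical.

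Chymase is a serine protease best known from the secretory granules of connective tissue mast cells, where it is stored with serglycin. Its gene belongs to the same cluster as granzyme B, the death-inducing protease of cytotoxic lymphocytes. Clade B serpins are cytosolic suicide inhibitors: the target protease cleaves a loop of the serpin and is trapped on it. Cytotoxic cells are thought to use them against granule proteases that leak into their own cytosol. In the mouse, Serpinb9 is known as an inhibitor of granzyme B, Serpinb9b of granzyme M and Serpinb6b of granzyme A. Serpinb6a is the mouse counterpart of human SERPINB6, an inhibitor of cathepsin G.

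The regions upstream of 3 of the genes are shown first, because Cma1 and Serpinb9b had the largest differences of the 5 genes and Serpinb9 is the close relative and direct neighbour of Serpinb9b. Each is the 250 bases before the annotated start, 5′ to 3′ on the gene's strand, from RefSeq (GRCm38.p6), with motif matches in capitals:
Cma1, chr14:55944676-55944925, minus strand: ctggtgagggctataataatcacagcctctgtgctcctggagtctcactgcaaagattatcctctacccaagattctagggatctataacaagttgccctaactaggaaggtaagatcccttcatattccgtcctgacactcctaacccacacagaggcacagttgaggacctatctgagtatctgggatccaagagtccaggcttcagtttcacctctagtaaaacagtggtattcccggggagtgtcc
Serpinb9b, chr13:33027164-33027413, plus strand: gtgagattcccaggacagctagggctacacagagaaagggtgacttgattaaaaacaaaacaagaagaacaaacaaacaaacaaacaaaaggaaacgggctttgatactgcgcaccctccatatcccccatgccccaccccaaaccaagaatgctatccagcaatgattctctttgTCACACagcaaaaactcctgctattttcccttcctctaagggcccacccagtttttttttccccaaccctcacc
Serpinb9, chr13:33004291-33004540, plus strand: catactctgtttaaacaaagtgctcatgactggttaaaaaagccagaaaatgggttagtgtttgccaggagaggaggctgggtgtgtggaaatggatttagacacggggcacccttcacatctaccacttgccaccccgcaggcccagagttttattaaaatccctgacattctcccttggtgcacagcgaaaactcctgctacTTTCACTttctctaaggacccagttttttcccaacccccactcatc

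The Serpinb9 and Serpinb9b regions could be aligned over 225 bases, of which 68.4% were identical. In all, 4 motifs were searched on both strands. The first was the T-box half-site TCACAC of T-bet and Eomes, found in 12.3% of 32851 RefSeq promoter regions of this length. The second was AGTGAAA, part of Blimp-1 and IRF sites, found in 3.7%. The others were the ZEB E-box CACCTG, found in 17.2%, and the RUNX core TGTGGT, found in 14%. No matches overlapped in the regions of the 5 genes. Serpinb9b held 1 T-box half-site, from 74 to 69 bases before the start. Serpinb9 held 1 match to the Blimp-1 and IRF letters, on the opposite strand from 46 to 40 bases before the start, and no T-box half-site. Cma1 and Serpinb6b held none of the 4, and 1 of the 2 Serpinb6a regions held the ZEB E-box. A match describes letters only.

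Expression values are log2 after RMA, a normalization that equalises the distribution of values between arrays, so a log2 difference of 1 is a 2-fold change. Levels are compared within a probe set only. Means carry the SD over n = 2 arrays, and differences carry the standard error (SE) of a limma model fitted to all probe sets. A level of 6.43, the 95th percentile of the means of 60 genes of other tissues, is called background here because the table holds no detection calls. All 6 probe sets of the 5 genes lay above it on every array. Array medians lay between 5.26 and 5.36. For 1 array, CD27-CD11b+ replicate 1, the labels conflict: the title names the most mature subset and the sorting text the least mature one. The title was followed. Its values for the sorting markers were 6.96 for Cd27 and 9.93 for Itgam, which encodes CD11b, against 6.47 and 9.44 in CD27-CD11b+ replicate 2. In CD27+CD11b- cells Cd27 was 8.78 and 8.03 and Itgam 6.37 and 5.88. Differences that involve the subset of that array are therefore also given without it.

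The arrays also fall into 2 sets that cross the subsets. On 3 arrays, called on arrays here, 3 probe sets without a gene name averaged 12.57 to 12.81: replicate 2 of both CD27+ subsets and replicate 1 of the CD27-CD11b+ subset. The remaining arrays, called off arrays, averaged 4.33 to 4.47, so each subset has 1 array of either kind. These 3 probe sets were picked from 9160 without a gene symbol, for the largest gap between the 2 arrays that held in every subset. Markers of monocytes and macrophages (19 genes) averaged, in the order of maturation, 6.05, 6.92 and 6.70 where the array was off, against 7.41, 7.72 and 7.57 where it was on. Markers of other innate lymphoid cells (8 genes) averaged 8.79 and 9.26 in CD27+CD11b-, 7.19 and 7.48 in CD27+CD11b+ and 7.13 and 6.98 in CD27-CD11b+. Of these 8, 5 (Il7r, Tmem176a, Tmem176b, Cd163l1 and Cxcr6) fell between the outer subsets in limma (all genes 3.39% called). T cell markers (9 genes) averaged 7.09 and 6.82, then 6.88 and 6.55, then 5.92 and 6.01, and 3 of 9 (Cd3d, Cd28 and Thy1) fell between the outer subsets in limma (all genes 3.39% called). The part of these transcripts in the results was not tested. In bulk samples, fewer cells of a type and less RNA per cell cannot be told apart.

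Chymase had the largest range of the 5 genes. The single Cma1 probe set read 7.07 and 7.25 in CD27+CD11b-, 9.48 and 9.62 in CD27+CD11b+, and 11.85 and 11.30 in CD27-CD11b+. Both arrays of each subset thus lay above both arrays of the subset before it, with gaps of 2.23 and 1.68 between the nearest arrays. The means were 7.16 ± 0.13, 9.55 ± 0.10 and 11.57 ± 0.39. The difference was 2.39 (SE 0.21) at the gain of CD11b and 2.02 (SE 0.21) at the loss of CD27, and the least and most mature subsets differed 21.3-fold, by 4.41 (SE 0.21). Without CD27-CD11b+ replicate 1 the second and the outer difference were 1.75 and 4.14. Of 45037 probe sets, Cma1 ranked first by difference at the gain of CD11b, place 15 at the loss of CD27 and place 2 between the outer subsets. The 2 sets of arrays gave close values: the first difference was 2.42 among off arrays and 2.36 among on arrays, and the second 1.82 and 2.23. The averaged monocyte and macrophage markers were also higher in CD27+CD11b+ than in CD27+CD11b- cells within either set, and their part in the difference was not tested.

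**Figure D1:**
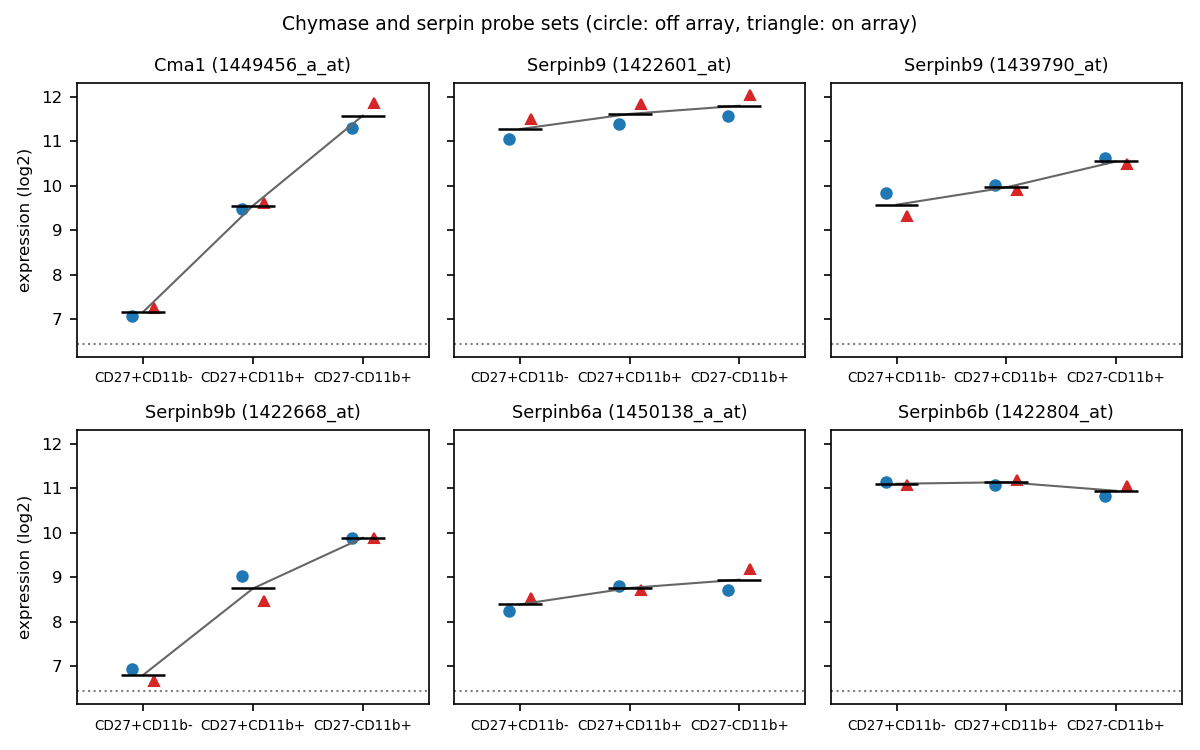
Expression (log2) of the 6 probe sets on each array, with the 3 subsets on the horizontal axis in order of maturation; circles are off arrays, triangles on arrays, horizontal bars the mean of 2 arrays, and the dotted line the background level of 6.43. Cma1 climbs from 7.16 to 11.57 and Serpinb9b from 6.80 to 9.89, while Serpinb6b stays between 10.84 and 11.20; heights are not comparable between panels.

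Among the serpins chosen here, Serpinb9b stood closest to chymase in the size of its differences. It read 6.94 and 6.67 in CD27+CD11b-, 9.04 and 8.46 in CD27+CD11b+, and 9.89 in both CD27-CD11b+ arrays. The groups did not overlap at either step, and the 2 CD27+CD11b+ arrays were the farthest apart. Its means were 6.80 ± 0.20, 8.75 ± 0.41 and 9.89 ± 0.01, so the least mature cells lay close to background. The differences were 1.95 (SE 0.22) at the gain of CD11b and 1.14 (SE 0.22) at the loss of CD27, and 3.08 (SE 0.22) between the outer subsets, 8.48-fold. The first step held 63.1% of the outer difference of Serpinb9b and 54.1% of that of Cma1. Without CD27-CD11b+ replicate 1 its second and outer differences were 1.14 and 3.09. Its second difference was 0.85 among off arrays and 1.43 among on arrays.

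Serpinb9, the granzyme B inhibitor, is covered by 2 probe sets that gave smaller differences. The brighter one (1422601_at) read 11.04 and 11.50, then 11.38 and 11.84, then 12.03 and 11.56 in order of maturation. Its neighbouring subsets overlapped, and only the outer ones were apart, by 0.066. The outer difference was 0.52 (SE 0.26), and 0.29 without CD27-CD11b+ replicate 1. The other probe set (1439790_at) read 9.83 and 9.31, 10.02 and 9.90, and 10.48 and 10.61. Here the subsets did not overlap, the outer difference was 0.97 (SE 0.20), 1.96-fold, and it was 1.04 without CD27-CD11b+ replicate 1. Over all arrays the 2 probe sets therefore shared a direction and differed in size. Of the 2 steps, they differed more at the loss of CD27 (0.18 and 0.58, SE 0.26 and 0.20). Without CD27-CD11b+ replicate 1 the brighter probe set gave -0.05 at that step, and without CD27+CD11b+ replicate 1 also -0.05. Either omission left on and off arrays in unequal parts in the 2 subsets compared. With only 1 kind of array used, the brighter probe set gave 0.18 (off) and 0.19 (on) at the loss of CD27. At the gain of CD11b it gave 0.34 with either kind, and between the outer subsets 0.52 (off) and 0.53 (on).

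By range over the arrays, Serpinb6b varied least (0.36), while Serpinb6a (0.93) lay near the brighter Serpinb9 probe set (0.98). Serpinb6a read 8.25 and 8.54 in CD27+CD11b-, 8.80 and 8.72 in CD27+CD11b+, and 9.18 and 8.72 in CD27-CD11b+. The CD11b+ subsets overlapped each other, and both lay above CD27+CD11b- cells. The differences were 0.37 (SE 0.20) at the gain of CD11b and 0.19 (SE 0.20) at the loss of CD27, the latter -0.08 within the off arrays, 0.45 within the on arrays and -0.04 without CD27-CD11b+ replicate 1. The outer difference was 0.56 (SE 0.20), and 0.33 without that array. Serpinb6b, the granzyme A inhibitor, read 11.14 and 11.07, 11.08 and 11.20, and 11.05 and 10.84. All 6 arrays lay within 0.36 of one another, and both CD27-CD11b+ arrays lay just below the other 4, by 0.011 or more. The outer difference was -0.16 (SE 0.15), or -0.27 without CD27-CD11b+ replicate 1. It was the only one of the 5 genes with a lower mean in the most mature cells.

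**Figure D2:**
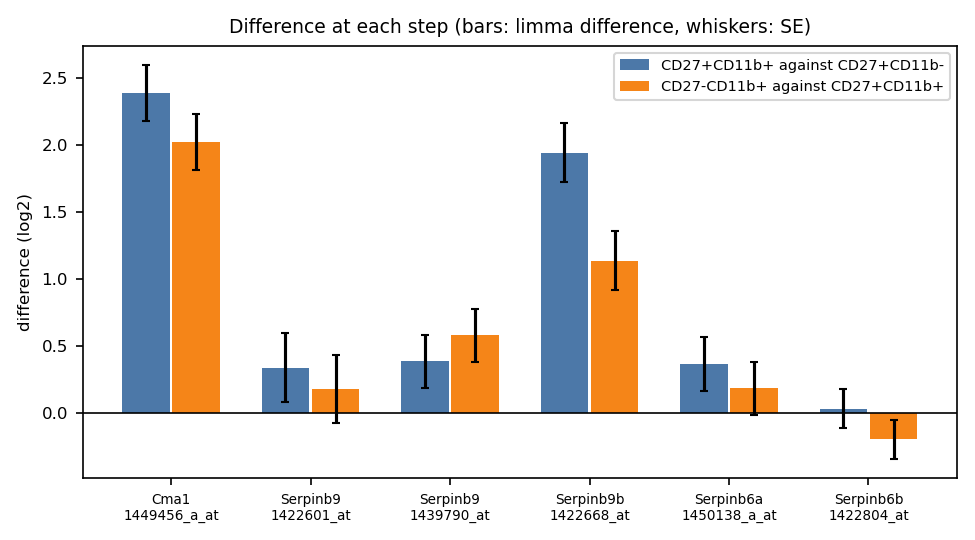
Log2 difference of each probe set at the gain of CD11b (CD27+CD11b+ against CD27+CD11b-) and at the loss of CD27 (CD27-CD11b+ against CD27+CD11b+); bars are limma differences and whiskers their SE. Cma1 shows 2.39 and 2.02 and Serpinb9b 1.95 and 1.14, while the bars of Serpinb9, Serpinb6a and Serpinb6b stay under 0.6.

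By size of the outer difference the order was Cma1, Serpinb9b, Serpinb9 (1439790_at), Serpinb6a, Serpinb9 (1422601_at) and Serpinb6b. Serpinb6a and Serpinb9 (1422601_at), at 0.56 and 0.52, lay closer together than their SE. In all, 3 of the 6 probe sets, of Cma1, Serpinb9b and Serpinb9 (1439790_at), were higher in each successive subset without overlap, as were 4.35% of all probe sets. Pair by pair, 4 of the 6 were higher without overlap at the gain of CD11b (14.8% of all probe sets). At the loss of CD27 it was 3 (20.7% of all), with 1 lower (16.8% of all), and between the outer subsets 5 (24% of all), with 1 lower (22.8% of all). In the limma fit over 18193 genes at an adjusted p of 0.05, 2 of the 5 genes (Cma1 and Serpinb9b) were called higher at the gain of CD11b, against 0.033% of all genes. At the loss of CD27 only Cma1 was called, against 0.17%, and between the outer subsets Cma1 and Serpinb9b, against 2.24%. These contrasts were known when the genes were chosen, so nothing is read from the counts. With each of the 6 arrays left out in turn, Cma1 was called at the gain of CD11b in 4 fits (not without either CD27+CD11b+ array) and at the loss of CD27 in 3 (nor without CD27-CD11b+ replicate 1), and Serpinb9b at the gain of CD11b in 2. Over probe sets, 0 of 45037 (0%) were called in the first comparison in limma (1339 had an unadjusted p under 0.05), and 18 (0.04%) and 288 (0.639%) in the others, with Cma1 and Serpinb9b called in the outer one alone.

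The known targets of the serpins did not share one direction. Gzmb, granzyme B, read 10.94 and 10.48, 12.54 and 12.11, and 13.23 and 13.18 in order of maturation. It rose 3.07-fold at the gain of CD11b (difference 1.62, SE 0.21, adjusted p = 0.0484 in limma over all genes) and 5.64-fold between the outer subsets (2.50, SE 0.21, adjusted p = 0.0013). The first of these calls was lost when any array but CD27+CD11b- replicate 1 was left out. Gzmm, granzyme M, read 8.23 and 7.40, 7.72 and 7.02, and 6.27 and 6.47. It fell at least 2.60-fold between the outer subsets, to background (difference -1.44, SE 0.31, adjusted p = 0.0497 in limma), a call lost without CD27+CD11b- replicate 1 or either CD27-CD11b+ array. Gzma, granzyme A, lay between 13.85 and 14.41 on all arrays and was not called. Side by side, the outer difference was 0.52 or 0.97 for Serpinb9 and 2.50 for Gzmb, 3.08 for Serpinb9b and -1.44 for Gzmm, and -0.16 for Serpinb6b and 0.42 for Gzma.

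**Figure D3:**
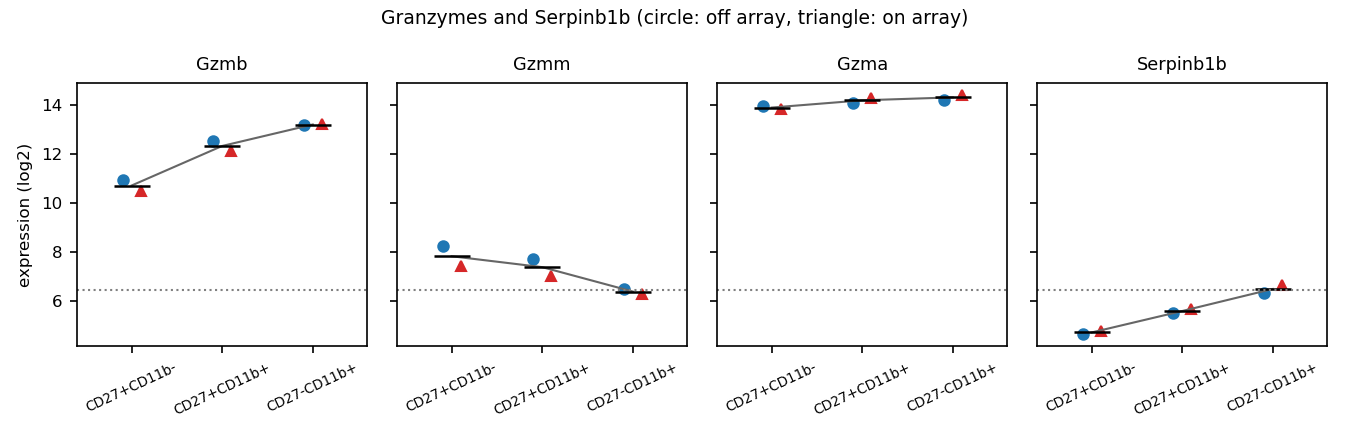
Expression (log2) of granzymes B, M and A and of Serpinb1b on each array by subset; circles are off arrays, triangles on arrays, horizontal bars the mean of 2 arrays, and the dotted line the background level of 6.43. Gzmb climbs from 10.71 to 13.21 and Gzmm declines from 7.81 to 6.37, and Serpinb1b reaches the dotted line in CD27-CD11b+ cells.

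Most other proteases of the chymase and granzyme B cluster were at background. Counted from Cma1 along chromosome 14 in RefSeq, Gzmb is gene 15. Of 12 measured genes of the cluster other than Cma1, 2 lay above background in a subset, Gzmb and Gzmc. The mast cell proteases Mcpt1, Mcpt2, Mcpt4 and Mcpt8, the neutrophil protease Ctsg, and Gzmd, Gzme, Gzmf, Gzmg and Gzmn all stayed below it, with subset means from 2.92 to 5.59. Gzmb was the only called member, 1 of 12 at the gain of CD11b and between the outer subsets (all genes 0.121% and 3.39%) and 0 of 12 at the loss of CD27 (all genes 0.297%). Gzmc, a granzyme close to Gzmb in the cluster, read 7.04 and 7.60 in CD27+CD11b- and 5.77 and 5.42 in CD27-CD11b+ cells, and its outer difference of -1.73 (SE 0.39) was not called (adjusted p = 0.0549 in limma); with the array division as a block it was (0.0034). With that block Gzmb was also called at the loss of CD27 (adjusted p = 0.0492 in limma), as were Gzmm (0.042) and the serpin Serpinb1b (0.0259). The median outer difference of the 12 was -0.09, against -0.01 for all genes.

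Most mast cell and basophil markers were at background. Of 15 measured mast cell and basophil markers, which include Mcpt4 and Mcpt8, 14 stayed below background in every subset, among them Cpa3, the carboxypeptidase stored with chymase (subset means 3.97, 3.97 and 4.03), the IgE receptor chain Fcer1a (3.80, 3.85 and 3.79) and the tryptase gene Tpsab1 (3.82, 3.81 and 3.79). The averaged level of the 15, with Kit included, lay between 4.50 and 4.84 on all arrays. The exception was Kit, the stem cell factor receptor, which early NK and innate lymphoid cells also carry. It read 7.71 and 8.80, 6.82 and 7.37, and 5.19 and 5.0 in order of maturation. Between the outer subsets it fell at least 3.53-fold, to background (difference -3.16, SE 0.34, adjusted p = 0.0040 in limma), a call lost without CD27-CD11b+ replicate 1. The part of mast cell RNA in the Cma1 values was not tested. The 12 measured NK cell markers all lay above background, with an averaged level between 11.50 and 12.11. All 12 had a higher mean in CD27-CD11b+ than in CD27+CD11b- cells, with a median difference of 0.51 (all genes -0.01). Of these, 2 (Tbx21 and Prf1) were called in limma (all genes 3.39%).

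**Figure D4:**
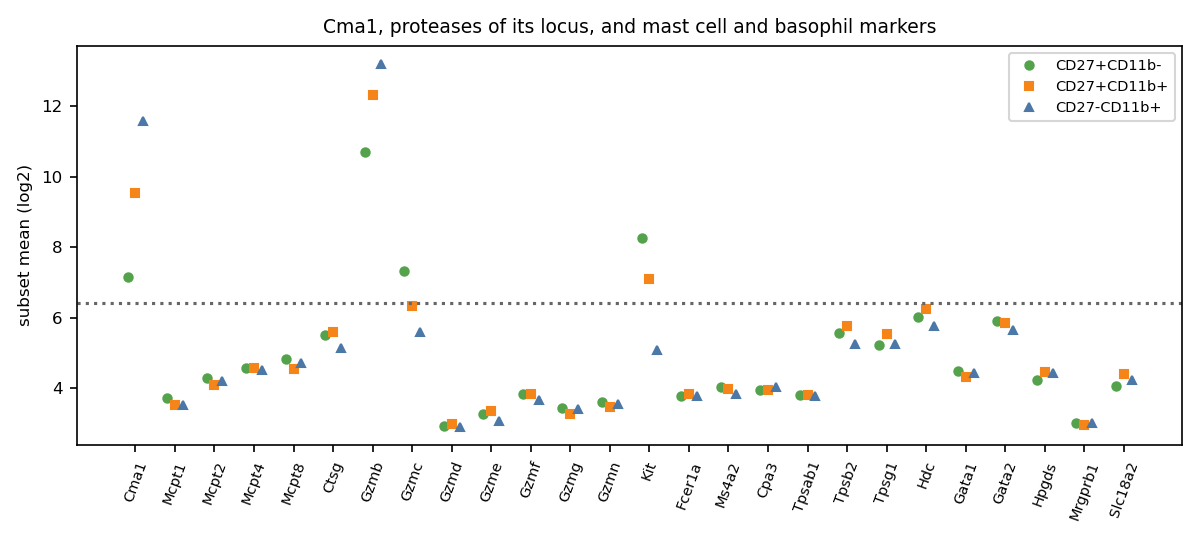
Subset means (log2) of Cma1, 12 other proteases of its cluster and the mast cell and basophil markers; each symbol is the mean of 2 arrays and the dotted line is the background level of 6.43. Above the line stand Cma1 and Gzmb, ascending with maturation, and Gzmc and Kit, descending to below it; all others lie under the line.

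Among related serpins, a direct neighbour of Serpinb9b was called, from levels mostly below background. The stretch of chromosome 13 from Serpinb6b to Serpinb6a, the outermost of the serpins chosen here, was read from RefSeq. It begins with Serpinb6b, Serpinb9, Serpinb9b and Serpinb1b, and Serpinb6a is gene 14. Serpinb1b, whose family members inhibit neutrophil granule proteases, read 4.64 and 4.75, 5.48 and 5.66, and 6.63 and 6.32. It was called higher between the outer subsets (adjusted p = 0.0022 in limma), also with each array left out in turn. Only CD27-CD11b+ replicate 1 lay above background, and the CD27-CD11b+ mean exceeded background just 1.03-fold, so the size of the change is not known. The other measured serpins of this list were Serpinb1a, which is not in that stretch, and Serpinb6c, Serpinb6e, Serpinb9c, Serpinb9d and Serpinb9g. None of them was called. Serpinb6e, whose probe set type (_x_at) can match other transcripts, was the only one of those above background, at 6.91 to 7.37. Between the outer subsets 1 of 7 was thus called (all genes 3.39%), and at each single step 0 of 7 (all genes 0.121% and 0.297%). The median outer difference of the 7 was 0.12. None of the 7 measured genes of the second clade B cluster lay above background, and 0 were called.

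Serpins of other clades gave 1 call in 14, between the outer subsets (all genes 3.39%). Serpini1, neuroserpin, read 5.97 and 6.74, 6.99 and 7.19, and 8.08 and 7.57, and rose at least 2.63-fold (difference 1.47, SE 0.27, adjusted p = 0.0313 in limma). A second probe set of it above background in the mature cells differed by 1.12, and another, below background, by -0.03. The call was lost without CD27+CD11b- replicate 1 or either CD27-CD11b+ array. Among cystatins, inhibitors of cysteine proteases, 1 of 5 was called there (all genes 3.39%): Cst7 (cystatin F, which restrains cathepsin C) rose by 0.87 (SE 0.17, adjusted p = 0.0399 in limma), a call lost with any 1 array left out. Ctsc, cathepsin C, which removes the propeptide of granzymes and chymase, read 11.49 and 11.57, 11.86 and 11.90, and 12.40 and 12.22. It rose by 0.78 (SE 0.15, adjusted p = 0.0333 in limma) between the outer subsets, as 1 of 4 storage and activation genes (all genes 3.39%). The call was lost without any 1 array of either outer subset and with the mean of its probe sets, of which 2 others, below background, differed by 0.79 and by less than 0.01. Srgn, the serglycin core protein, lay between 12.37 and 12.88. Prf1, the pore-forming perforin, rose by 1.38 (SE 0.16, adjusted p = 0.0061 in limma), a call lost without CD27-CD11b+ replicate 1, and with Gzmm made 2 calls among 6 other granule genes (all genes 3.39%). Another Prf1 probe set, below background, differed by 0.10.

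The genes with the profiles most like that of Cma1 were sought among 495 genes above background whose subset means spanned at least 1. By Pearson r over the 6 arrays they were Cmklr1, the chemerin receptor (0.998), Klrg1, an inhibitory receptor of mature NK cells (0.997), Serpinb1b (0.996), Selenon, a selenoprotein (0.996), and Rap1gap2, a regulator of granule secretion (0.994). For Serpinb9b they were Pdgfb, a growth factor chain (0.9999), Gzmb (0.998), Itgam (0.995), the engulfment adaptor Elmo2 (0.994) and Khdc1a (0.987). Cma1 and Serpinb9b correlated at 0.975, place 26 in the Cma1 list and place 11 in the Serpinb9b list. Serpinb1b was a candidate through its CD27-CD11b+ mean alone, and 5 of its 6 arrays lay below background. These values describe 6 arrays that share their order of subsets and 1 normalization.

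The difference between on and off arrays had not been used to pick the genes and could be tested, although it was chosen after seeing the data. The brighter Serpinb9 probe set was higher in the on array of every subset, by 0.45, 0.46 and 0.46 in order of maturation, more than it differed at either step. Its fitted difference was 0.46 (SE 0.10, adjusted p = 0.289 in limma over probe sets with this division as a block) and was not called. The second Serpinb9 probe set was lower in every on array, by 0.51, 0.12 and 0.14, a fitted difference of -0.26 (SE 0.13, adjusted p = 0.575 in limma). The 2 probe sets of one gene thus differed in direction here. For Cma1 the on array was higher by 0.19, 0.13 and 0.55 (fitted 0.29, SE 0.13), and for Serpinb9b lower by 0.28, 0.58 and 0.01 (fitted -0.29, SE 0.14). Of the 6 probe sets 0 were called, as against 0.00888% of all probe sets (4606 had an unadjusted p under 0.05). On arrays were above off arrays in all subsets for 2 of the 6 probe sets and for 17.7% of all, and below for 2 of the 6 and for 14.9% of all. The part of the myeloid transcripts, which followed the same division, in the Serpinb9 values was not tested.

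**Figure D5:**
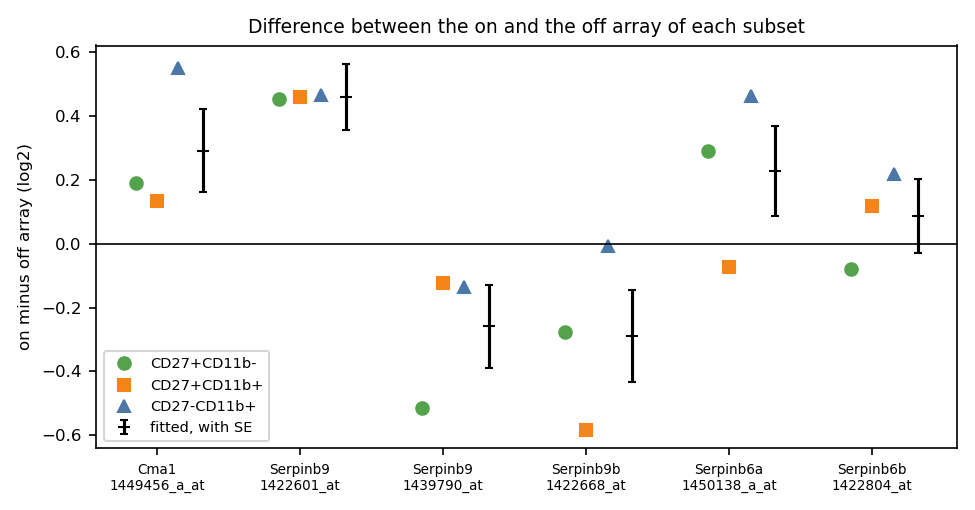
Log2 difference between the on and the off array of each subset for the 6 probe sets; symbols are single differences and the black marks the fitted difference with its SE. The 3 symbols of Serpinb9 1422601_at coincide near 0.46, those of Serpinb9 1439790_at lie below 0, and Serpinb6a and Serpinb6b straddle 0.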

How the data were processed

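The authors deposited 1 table of log2 values, 45101 probe sets by 6 arrays. The submitters' processing notes name RMA with no version, and the log2 scale was read from the range of 2.60 to 14.7. RMA removes shifts shared by most genes and compresses differences of dim genes. The number of arrays limits the precision. From these values 64 control probe sets were left out, and 34945 probe sets with 1 gene symbol in the array annotation stood for 18193 genes (932 had several symbols and 9160 none). The probe set with the highest mean represented a gene.

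Samples were grouped by title. limma 3.58.1 (R 4.3.3) was fitted with 1 mean per subset over all 6 arrays, once over genes and once over all 45037 probe sets, with 3 residual degrees of freedom and Benjamini-Hochberg adjustment over all features. Related gene lists were read as counts from the gene fit. Named genes were all probe sets of the 5 genes, every called member of the related lists, the measured proteases and serpins of both clusters, mast cell markers above background, and the 5 genes of highest Pearson r with Cma1 or Serpinb9b. The genes and lists were chosen with earlier results of these data known, and the motifs after the promoter sequences had been seen. Alignments used Biopython 1.88. Alternatives were a replicate block, the array division as a block, 32 added to the linear values, the mean of all probe sets, a filter on dim genes, each array left out, and, chosen after seeing the data, differences among on and among off arrays alone.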

Additional observations from a re-analysis of the deposited data

How the results depend on the processing

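The counts of genes called at the 3 comparisons, in the order gain of CD11b, loss of CD27 and outer subsets, were 22, 54 and 617. With the array division as a block they were 58, 296 and 1480, and with 32 added to the linear values 0, 11 (5 higher and 6 lower, against 31 and 23) and 367. With the mean of all probe sets the first became 11. With 1 array left out they ranged from 4 to 30, 6 to 53 and 84 to 635, the lone array left being assumed to vary like the others. Leaving out CD27-CD11b+ replicate 1 gave 12, 6 and 84, CD27-CD11b+ replicate 2 gave 12, 25 and 230, CD27+CD11b+ replicate 1 gave 4 and 13 and replicate 2 gave 5 and 11 at the first 2 comparisons, and between the outer subsets CD27+CD11b- replicate 1 gave 236 and replicate 2 gave 296 (and 10 at the first). The related lists held 1, 0 and 7 called genes; the array division block gave 3 at the loss of CD27 (Gzmb, Gzmm and Serpinb1b) and 9 between the outer subsets (with Gzmc and Ndst2), 32 added gave 0 at the gain of CD11b and 4 between the outer subsets, the mean of probe sets gave 0 at the gain of CD11b, and leaving out 1 array gave 0 to 1, 0 to 0 and 2 to 7.

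With the replicate number as a block, 19, 58 and 760 genes and 1, 0 and 8 list genes (with Gzmc) were called. The numbers share no stated source, and deviations of same-numbered arrays correlated at 0.62, -0.25 and -0.14, so they were not taken as pairs; the array division is the crossed pairing.

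Of 201 alternative values for the differences of the 6 probe sets, 173 moved by less than 1 SD and 7 had another sign. All 7 were for Serpinb9 (1422601_at) or Serpinb6a at the loss of CD27 or Serpinb6b at the gain of CD11b. Some of the 201 could not move, so these counts do not measure stability. Neither block can change a difference in this balanced design. Leaving out an array of the subset outside a comparison cannot change it either. Cma1 ranged from 2.16 to 2.48, 1.75 to 2.30 and 4.14 to 4.69, and Serpinb9b from 1.65 to 2.24, 0.85 to 1.43 and 2.77 to 3.22. Ranked by distance between centred profiles, 1 of the 5 genes most like Cma1 and 2 of the 5 most like Serpinb9b stayed among the first 5. The cause was not tested.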
